A study of Mus musculus with 9 samples.

Results

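The genes described here are the collagen chains: all genes on the array whose symbol is Col, a number, the letter a and a number, such as Col1a1. Of 18194 genes measured, 42 met this rule, covered by 82 of 45101 probe sets. Where a gene had several probe sets, the one with the highest mean over the 9 arrays stands for it. The 42 chains comprise 11 fibrillar chains, 9 FACIT chains (fibril-associated collagens with interrupted triple helices), 6 chains of basement membrane collagen IV, 5 chains of the beaded-filament collagen VI and 11 other chains. Col6a6 and Col28a1 were also looked for and had no probe set naming them alone.

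A collagen molecule is a triple helix of 3 polypeptide chains, which may be copies of one gene's product or come from several genes. Collagen I, built from Col1a1 and Col1a2, makes up most of the organic matrix of bone. Small amounts of collagens III and V mix into its fibrils, and FACIT collagens such as XII sit on the fibril surface. Collagen IV forms the sheet beneath endothelium and around other cells, and collagen VI forms fine filaments in the matrix close to cells. Osteocytes, the cells embedded in bone, can remove and replace the matrix around their own cavities, a process called perilacunar remodelling, which the submitters gave as the reason for the experiment.

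There were 3 groups of 3 Affymetrix mouse arrays, all from tibiae of CD-1 wild-type mice aged 16 to 18 weeks. The post-lactation mice had nursed for 12 days, lost their pups to force weaning, and were killed 7 days later. The lactation mice were killed on day 12 of nursing, with litters set at 8 to 13 pups as in the post-lactation group, and the virgin mice were controls of the same age. All shafts were stripped of periosteum, spun free of marrow and digested in turn with collagenase and trypsin, EDTA and trypsin, and collagenase again, so the RNA came from whole, pulverised, osteocyte-enriched bone and not from isolated cells. Groups follow the array titles, although the post-lactation arrays carry virgin as their source name and 1 sentence of the protocol says femurs. The labels do not say that each array was a separate mouse, so the spread behind each p-value may be that of technical repeats.

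Values are log2 signals, and a difference of 1 is a doubling. Arrays fell into 3 sets, each holding 1 array of every group, found from exactly equal values: 2.5% to 44.1% of probe sets were equal between 2 arrays of a set and at most 2 probe sets between sets. Set 1 held post-lactation 1, lactation 3 and virgin 1, set 2 held post-lactation 3, lactation 2 and virgin 2, and set 3 held post-lactation 2, lactation 1 and virgin 3. Set 1 arrays had median signals of 4.32 to 4.34, those of set 2 had 4.80 to 4.82 and those of set 3 had 4.57, so differences within each set are given beside the group means. Virgin 1 stood apart: the summed signal of 10 osteocyte markers (Sost, Dmp1, Mepe and others), in log2 above the array median, was 9.84 to 10.61 after lactation and 10.25 to 10.44 in lactation, but 8.23 in virgin 1, against 10.54 and 10.89 in virgin 2 and 3. Of those 10 markers 9 lay above 4.87, the 40th percentile of gene means, the exception being Fgf23. Markers of other cells were also present. Erythroid genes were at 2.76 to 4.16 after lactation, 8.63 to 8.90 in lactation and 7.03 to 7.98 in virgin bone. All 7 fell after lactation relative to lactation and to virgin by limma at adjusted p under 0.05. In these comparisons 0.709% and 0.176% of all genes were called.

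The sequences just upstream of 4 chains are shown because their values carry the comparisons below: Col11a1 was the 1 chain called over the 9 arrays, and only with the array set as a block, and the 3 collagen VI chains, which assemble into one molecule, are set against each other, Col6a3 having its highest mean in another group than Col6a1 and Col6a2. They are RefSeq sequences of GRCm38.p6, printed 5′ to 3′ on the gene's strand, from 250 bases before the start to the last base outside the annotated gene. The stretches are chr3:114030290-114030478 on the plus strand for Col11a1, chr10:76726045-76726294 on the minus strand for Col6a1, chr10:76623631-76623880 on the minus strand for Col6a2 (the more upstream of its starts) and chr1:90844002-90844221 on the minus strand for Col6a3. Capitals mark 3 motifs, each searched on both strands: CCAAT (the CCAAT box), GGGCGG (the GC box) and TATAAA (the TATA box).
Col11a1: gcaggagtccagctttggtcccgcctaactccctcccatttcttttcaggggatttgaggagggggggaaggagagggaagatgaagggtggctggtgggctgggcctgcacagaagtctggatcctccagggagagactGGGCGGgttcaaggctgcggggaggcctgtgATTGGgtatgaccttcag
Col6a1: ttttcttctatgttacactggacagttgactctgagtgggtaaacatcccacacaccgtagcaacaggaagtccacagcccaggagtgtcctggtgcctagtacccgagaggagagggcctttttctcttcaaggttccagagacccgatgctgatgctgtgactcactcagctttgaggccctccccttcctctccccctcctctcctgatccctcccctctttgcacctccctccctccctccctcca
Col6a2: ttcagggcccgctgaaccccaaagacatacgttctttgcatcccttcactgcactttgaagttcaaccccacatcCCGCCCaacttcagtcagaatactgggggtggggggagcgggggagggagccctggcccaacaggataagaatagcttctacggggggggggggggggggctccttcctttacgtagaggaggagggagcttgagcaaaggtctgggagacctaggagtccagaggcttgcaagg
Col6a3: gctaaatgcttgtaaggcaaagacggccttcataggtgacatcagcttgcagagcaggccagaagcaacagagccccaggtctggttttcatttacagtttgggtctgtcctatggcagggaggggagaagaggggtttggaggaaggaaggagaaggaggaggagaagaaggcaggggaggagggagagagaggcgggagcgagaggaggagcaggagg
Col11a1 held a CCAAT match 79 bases and a GGGCGG match 110 bases before the start used for its window. That start lies inside the annotated gene, past the 189 bases printed, so the matches are nearer to the end of the printed stretch. Col6a2 held a GGGCGG match at 175 bases, and the stretches of Col6a1 and Col6a3 held none of the motifs. Of the 42 chains 33 had a window in the RefSeq table. Windows were missing for Col14a1, Col9a3, Col22a1, Col12a1, Col4a3, Col2a1, Col1a1, Col5a2 and Col26a1. Over 250 bases before the start, GGGCGG occurred in 20 of the 33 (60.6%), CCAAT in 12 (36.4%) and TATAAA in 5 (15.2%). Among all 32851 windows in the table the shares were 32.7%, 33.8% and 12.4%. Each chain entered with its most 5′ window only, while the 32851 were not reduced to 1 per gene. The shares are therefore of unlike sets and were not tested. The starts used for the windows of Col4a1 and Col4a2 lie 21 bases apart on opposite strands. The annotated genes overlap, Col4a1 reaching to base 11312889 of chromosome 8 and Col4a2 beginning at 11312805. The arrays did not measure anything at these sites.

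Chains of every family lay above 4.87, which is not a detection limit, but the families differed in how many. All 11 fibrillar chains lay above 4.87, as did 4 of 9 FACIT chains, 2 of 6 basement membrane chains, 3 of 5 beaded-filament chains and 6 of 11 other chains, 26 of 42 (61.9%) in all. These are probe set signals, which depend on the probes as well as on the amount of RNA, so chains are not ranked against each other. The 16 chains below 4.87 were the FACIT chains Col9a1, Col9a2, Col9a3, Col14a1 and Col19a1, the basement membrane chains Col4a3 to Col4a6, Col6a4 and Col6a5, and Col8a2, Col10a1, Col17a1, Col23a1 and Col26a1. Their differences between groups ran from -0.36 to 0.37 on the log2 scale, and no fold change is given for them. Col10a1, the collagen of hypertrophic growth plate cartilage, was at 3.84, 3.44 and 4.96 after lactation, 3.57, 4.86 and 3.66 in lactation and 3.24, 4.86 and 3.53 in virgin bone. Only 1 of these 9 values exceeded 4.87, and the groups overlapped throughout.

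No collagen chain passed limma's test at an adjusted p under 0.05 in any of the 3 comparisons when the arrays were fitted without regard to set. The share of all genes called was 0.709% for post-lactation versus lactation, 0.0% for lactation versus virgin and 0.176% for post-lactation versus virgin. At an unadjusted p under 0.05, 4, 4 and 11 of the 42 chains passed in these comparisons, against 5.06%, 1.8% and 2.09% of all genes. With the array set as a block, 0, 0 and 1 chains passed after adjustment, against 3.53%, 0.022% and 0.451% of all genes, and 8, 8 and 15 passed unadjusted, against 15.1%, 8.01% and 8.11%. The 1 chain was Col11a1 in post-lactation versus virgin. The comparisons share groups and are given side by side, not as support for each other.

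The fibrillar chains were higher in both later groups than in virgin bone by their means. In lactation versus virgin, 11 of 11 had the higher mean, with a median difference of 0.50 (range 0.07 to 0.96), against a median of 0.01 and 52.5% higher among all genes. In 3 of them, Col1a1, Col5a1 and Col5a2, the groups did not overlap, against 3.07% of genes above 4.87. In 7 of 11 lactation was higher in all 3 array sets (15.3% of genes above 4.87). Here and below, a gene with equal values on both arrays of a set cannot count as higher in all 3 sets. Such ties, 36.1% to 44.1% of probe sets in sets 2 and 3, also occur above 4.87. Col7a1, for example, was at 5.77 on every set 2 array. They lower the shares among all genes by an amount not measured. In post-lactation versus virgin, 11 of 11 again had the higher mean, with a median of 0.61 (range 0.17 to 1.04), against 0.00 and 50.9% higher for all genes. The groups did not overlap in 5 (1.77% of genes above 4.87), and 8 were higher in all 3 sets (7.85%). Post-lactation versus lactation gave a median of 0.11, with 8 higher and 3 lower means (50.1% higher among all genes). In that comparison 2 of 11, Col3a1 and Col5a3, did not overlap (5.15% of genes above 4.87) and 5 were higher in all 3 sets (17.2%). In bulk bone, more cells of a type and more RNA per cell cannot be told apart. The medians also leaned on virgin 1: without it lactation versus virgin was 0.12 and post-lactation versus virgin 0.49. Within sets 1, 2 and 3 the medians were 0.59, 0.46 and 0.12 for lactation versus virgin and 1.00, 0.77 and 0.23 for post-lactation versus virgin.

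**Figure D1:**
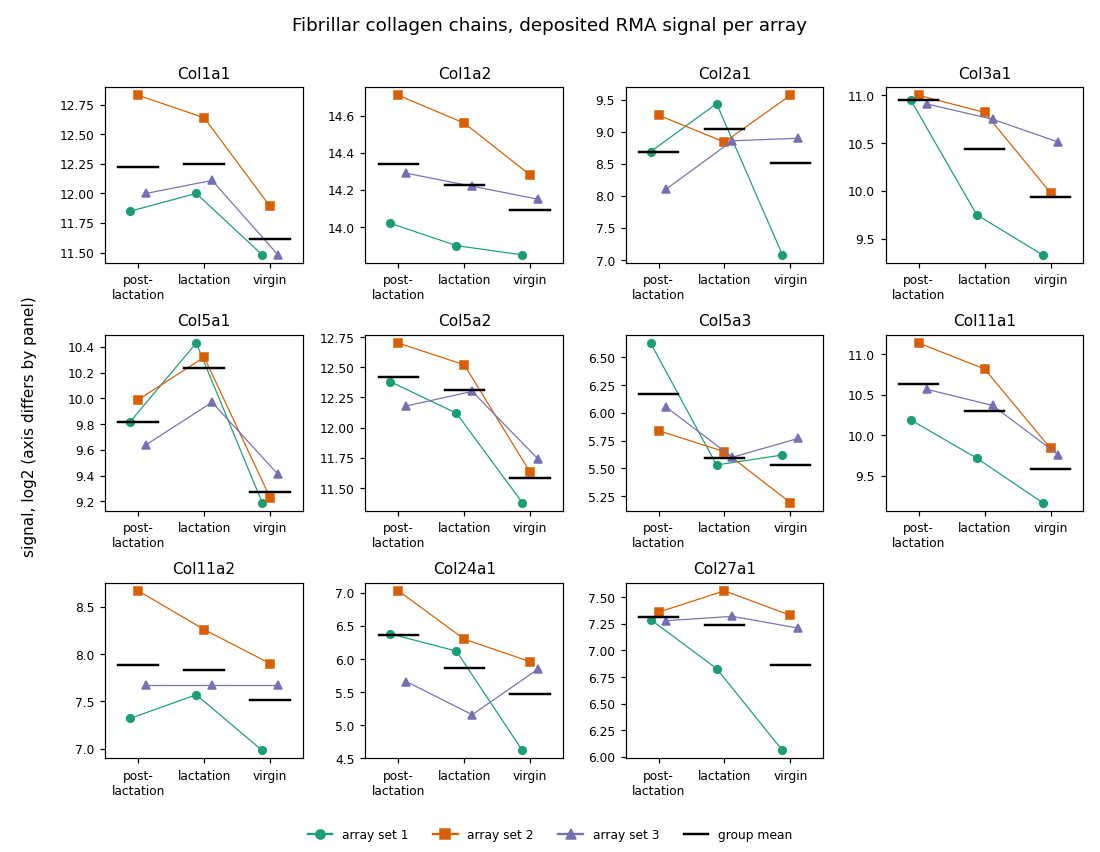
Log2 signal of each of the 11 fibrillar chains on every array, with post-lactation, lactation and virgin from left to right; points are arrays, joined by array set, the bar is the group mean, and the vertical axis differs by panel. Lactation and virgin arrays separate for Col1a1, Col5a1 and Col5a2, while for Col2a1 virgin 1, at 7.08, lies below all the other arrays.

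Collagen I is the main bone collagen. Col1a1, its α1 chain, measured 11.85, 12.00 and 12.83 in post-lactation arrays 1 to 3, 12.11, 12.64 and 12.00 in lactation and 11.48, 11.89 and 11.48 in virgin bone. Every lactation array was above every virgin array, and the post-lactation arrays overlapped both. The difference was 0.63 ± 0.29 (SE) for lactation versus virgin, a 1.55-fold higher signal, and 0.61 ± 0.29 for post-lactation versus virgin; limma's adjusted p was 1 for both, and 0.148 and 0.136 with the set as a block. Within sets 1, 2 and 3 lactation exceeded virgin by 0.52, 0.75 and 0.63. The second Col1a1 probe set, with a mean of 12.02, gave 0.46 for lactation versus virgin and 0.53 for post-lactation versus virgin. Col1a2, the α2 chain, measured 14.02, 14.29 and 14.71 after lactation, 14.22, 14.56 and 13.90 in lactation and 13.85, 14.28 and 14.15 in virgin bone, with all groups overlapping. Its differences were 0.12, 0.13 and 0.24 for post-lactation versus lactation, lactation versus virgin and post-lactation versus virgin, each with an SE of 0.25. This probe set lies near the highest value on any array, 14.88. The other 2 probe sets of Col1a2, with means of 13.57 and 7.09, gave 0.35 and 0.75 for lactation versus virgin.

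Collagen III is a fibrillar collagen of soft connective tissue, vessel walls and healing bone. Col3a1 measured 10.95, 10.91 and 11.00 after lactation, 10.75, 10.82 and 9.75 in lactation and 9.33, 9.98 and 10.51 in virgin bone. The post-lactation arrays lay close together and above all 6 others, while lactation and virgin arrays overlapped. The difference was 1.01 ± 0.34 for post-lactation versus virgin, 2.02-fold, with limma adjusted p of 1 without and 0.279 with the set block. It was 0.52 ± 0.34 for post-lactation versus lactation, adjusted p 1 and 0.404. Within sets 1, 2 and 3 post-lactation minus virgin was 1.62, 1.02 and 0.40, and post-lactation minus lactation was 1.20, 0.19 and 0.16. The second Col3a1 probe set gave 1.07 and 0.49 for these comparisons. Of the fibrillar chains Col3a1 and Col11a1 had the 2 largest post-lactation versus virgin differences.

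Collagen V is built from α1, α2 and α3 chains and is known for setting the diameter of collagen I fibrils. Col5a1 measured 9.82, 9.64 and 9.99 after lactation, 9.97, 10.32 and 10.43 in lactation and 9.19, 9.23 and 9.41 in virgin bone. It was higher in lactation than in virgin bone on every array, by 0.96 ± 0.21 or 1.95-fold, the largest such difference of a fibrillar chain (limma adjusted p 0.95, and 0.105 with the set block). After lactation it stood between: post-lactation minus lactation was -0.42 ± 0.21 and post-lactation minus virgin 0.54 ± 0.21. The other 2 probe sets of Col5a1 gave 0.67 and 0.34 for lactation versus virgin and 0.29 and 0.09 for post-lactation versus virgin. Col5a2, the partner chain, which was picked out after its values were seen, measured 12.38, 12.18 and 12.70 after lactation, 12.30, 12.52 and 12.12 in lactation and 11.38, 11.63 and 11.74 in virgin bone. Both later groups lay above all virgin arrays, by 0.84 ± 0.22 for post-lactation (adjusted p 0.595, and 0.0849 with the block) and by 0.73 ± 0.22 for lactation (1, and 0.148). The second Col5a2 probe set, with a mean of 9.50, gave 0.35 and 0.57 for these comparisons. Col5a3 measured 6.63, 6.05 and 5.84 after lactation, 5.60, 5.65 and 5.53 in lactation and 5.62, 5.19 and 5.77 in virgin bone. It had the largest post-lactation versus lactation difference of a fibrillar chain, 0.57 ± 0.25, with no overlap, at adjusted p 0.896 and 0.224 with the block; set 1 gave 1.09 of it and sets 2 and 3 gave 0.19 and 0.45.

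Collagen XI is the cartilage counterpart of collagen V, and its α1 chain is also made by bone cells. Col11a1 measured 10.19, 10.57 and 11.14 after lactation, 10.37, 10.82 and 9.72 in lactation and 9.17, 9.84 and 9.76 in virgin bone. All post-lactation arrays were above all virgin arrays, and within sets 1, 2 and 3 the difference was 1.01, 1.30 and 0.81. The mean difference was 1.04, 2.06-fold. Its SE was 0.33 without the block and 0.11 with it, and limma's adjusted p was 1 and 0.028. With the block and without virgin 1 the difference was 1.09 and the adjusted p 0.109, and with any whole set left out the adjusted p was 0.188 to 0.439. The second Col11a1 probe set gave 0.70 for the same comparison, with adjusted p 0.231 under the block in the fit over all probe sets, where the brighter one had 0.0431. Lactation versus virgin was 0.71 ± 0.33 (adjusted p 1, and 0.119 with the block), higher in all 3 sets but with 1 lactation array, at 9.72, below virgin 2 and 3. Col11a2, the α2 chain of the same molecule, differed by 0.37 ± 0.36 in post-lactation versus virgin and by 0.32 ± 0.36 in lactation versus virgin.

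Collagen II is the fibrillar collagen of cartilage. Col2a1 measured 8.69, 8.11 and 9.26 after lactation, 8.86, 8.84 and 9.44 in lactation and 7.08, 9.57 and 8.90 in virgin bone. Virgin 1 was the lowest and virgin 2 the highest of the 9 arrays. Lactation minus virgin was 2.36, -0.73 and -0.04 within sets 1, 2 and 3, and the mean difference of 0.53 ± 0.53 turned to -0.19 without virgin 1. Of 11 chondrocyte markers 8 lay below 4.87, Acan, Matn1 and Hapln1 among them; their summed signal above the array median was 2.91 to 4.48 after lactation, 3.57 to 3.95 in lactation and 3.52 to 6.79 in virgin bone, and its part in the Col2a1 values was not tested. The remaining fibrillar chains, Col24a1 and Col27a1, had differences of 0.07 to 0.88 over the 3 comparisons, with all groups overlapping.

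Osteoblasts make most of the fibrillar collagen of bone, and their markers are set beside these chains. Of 10 osteoblast markers 6 had a probe set of their own, all above 4.87. Their summed signal above the array median was 6.81 to 7.93 after lactation, 7.30 to 8.09 in lactation and 6.99 to 7.44 in virgin bone. Of these 6 markers 6 had higher means in lactation than in virgin bone, by a median of 0.37, and 0 passed limma's test, with 0 at an unadjusted p under 0.05 (2 with the block). Limma's unadjusted p was under 0.05 in 1.8% of all genes, and in 8.01% with the block. In 3 of the 6 markers the groups did not overlap, against 3.07% of genes above 4.87. In 3 lactation was higher in all 3 sets, against 15.3%. Within sets 1, 2 and 3 the median was 1.04, 0.09 and -0.04, and without virgin 1 it was 0.09. For post-lactation versus virgin 4 of 6 osteoblast means were higher, with a median of 0.17 (-0.15 without virgin 1). For post-lactation versus lactation 2 of 6 were higher, with a median of -0.17. None passed limma's test in either comparison, with or without the block. Summed periosteal, tendon and fibroblast markers, 8 of 12 above 4.87, overlapped between groups, at 8.33 to 8.70 after lactation, 8.32 to 8.60 in lactation and 7.82 to 9.01 in virgin bone; Scx, Mkx, Dpt and Tnxb lay below 4.87. The part of these cells in the fibrillar results was not tested.

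Among the FACIT chains, Col12a1 and Col22a1 were higher on every lactation array than on every virgin array, which held for 3.07% of genes above 4.87. The family medians lay near zero. For lactation versus virgin 7 of 9 means were higher, with a median of 0.07, and 0.37 over the 4 chains above 4.87. For post-lactation versus lactation the median was -0.01, and all 4 chains above 4.87 had the lower mean, with a median of -0.22. For post-lactation versus virgin it was 0.10, with 7 of 9 higher.

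Collagen XII coats collagen I fibrils in tendon, ligament and bone. Col12a1 measured 9.07, 9.22 and 9.72 after lactation, 9.64, 10.23 and 9.63 in lactation and 8.32, 8.76 and 8.99 in virgin bone. The virgin arrays were below all others, and 1 post-lactation array, at 9.72, reached into the lactation range. Lactation versus virgin was 1.14 ± 0.27, 2.21-fold, the largest difference of any chain in that comparison, with limma adjusted p of 1 and 0.105 with the set block. Within sets 1, 2 and 3 it was 1.31, 1.47 and 0.65. Post-lactation minus lactation was -0.50 ± 0.27, and -0.56, -0.51 and -0.41 within the sets (adjusted p 1, and 0.225 with the block). Post-lactation minus virgin was 0.65 ± 0.27, 1.57-fold. The second probe set above 4.87 gave 0.67 for lactation versus virgin, -0.47 for post-lactation versus lactation and 0.20 for post-lactation versus virgin.

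Col22a1 encodes a FACIT chain known from tissue junctions such as that between muscle and tendon, and was chosen after its values were seen. It measured 8.43, 8.82 and 9.07 after lactation, 8.91, 9.22 and 9.11 in lactation and 8.28, 8.66 and 8.82 in virgin bone. All lactation arrays were above all virgin arrays, by 0.49 ± 0.23 (limma adjusted p 1, and 0.421 with the block), while the other 2 probe sets of Col22a1 gave 0.71 and 0.15. The other 2 FACIT chains above 4.87, Col16a1 and Col20a1, differed by -0.13 to 0.26. Of the skeletal muscle markers 6 of 9, Acta1 and Myh4 included, were below 4.87. The summed signal of the 9 was 2.89 to 3.18 after lactation, 3.24 to 3.43 in lactation and 3.07 to 3.18 in virgin bone. With the block 1 of 9 was called lower after lactation than in lactation (limma adjusted p 0.0118), against 3.53% of all genes called. Without it none was called, and 2 had an unadjusted p under 0.05, against 5.06% of all genes. The part of muscle in the Col22a1 values was not tested.

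**Figure D2:**
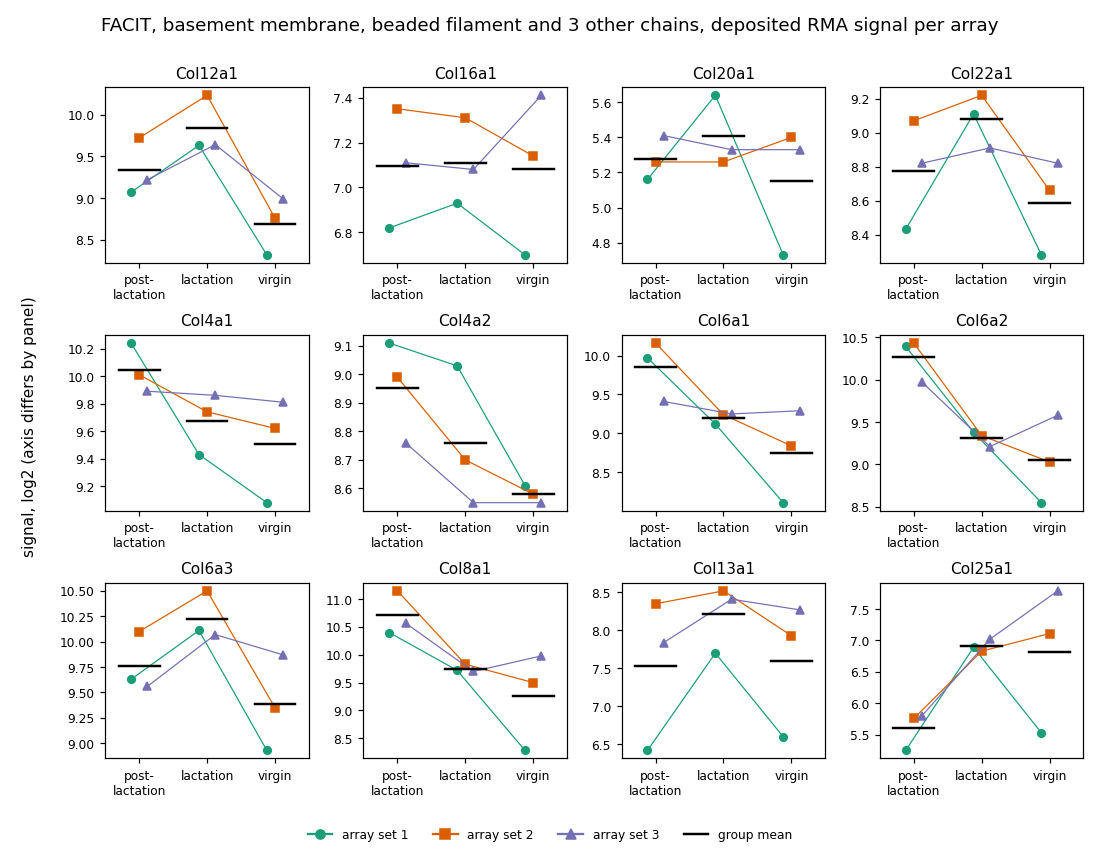
Log2 signal on every array of 12 FACIT, basement membrane, beaded-filament and other chains, with post-lactation, lactation and virgin from left to right; points are arrays joined by array set, the bar is the group mean, and the vertical axis differs by panel. Col12a1, Col22a1 and Col6a3 are higher on all lactation than on all virgin arrays, and Col4a1, Col6a1, Col6a2 and Col8a1 are higher on all post-lactation arrays than on the other 6.

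Of the basement membrane chains, Col4a1 and Col4a2, the pair that makes the common form of collagen IV, were well above 4.87 and Col4a3 to Col4a6 were not. Col4a1 measured 10.24, 9.89 and 10.01 after lactation, 9.86, 9.74 and 9.43 in lactation and 9.08, 9.62 and 9.81 in virgin bone. Its 3 post-lactation arrays were the highest of the 9, by 0.54 ± 0.24 over virgin, 1.46-fold, and by 0.37 ± 0.24 over lactation, at limma adjusted p of 1 for both and 0.535 and 0.447 with the set block. Most of both differences came from set 1, with 1.16 over virgin and 0.81 over lactation there, against 0.40 and 0.27 in set 2 and 0.08 and 0.03 in set 3. The second Col4a1 probe set, with a mean of 8.00, gave 0.32 over virgin and 0.06 over lactation. Col4a2 measured 9.11, 8.76 and 8.99 after lactation, 8.55, 8.70 and 9.03 in lactation and 8.61, 8.58 and 8.55 in virgin bone. Post-lactation and virgin arrays did not overlap, at 0.37 ± 0.20, and 1 lactation array reached 9.03. Over all 6 chains the medians were 0.14 for post-lactation versus lactation, -0.01 for lactation versus virgin and 0.09 for post-lactation versus virgin.

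Genes whose products join collagen IV in basement membranes, laminins, nidogens, perlecan, agrin, peroxidasin and Sparc among them, were counted from a list of 17, of which 16 were measured. For post-lactation versus lactation 14 of 16 means were higher with a median of 0.12, for lactation versus virgin 12 with 0.09, and for post-lactation versus virgin 14 with 0.22. Without virgin 1 the medians against virgin were -0.13 for lactation and 0.11 for post-lactation. None passed limma's test with or without the block, and 0 had an unadjusted p under 0.05 without it (0, 0 and 2 with it). The unadjusted shares among all genes were 5.06%, 1.8% and 2.09%, and 15.1%, 8.01% and 8.11% with the block. The largest post-lactation versus lactation differences of the list were those of the laminin chain Lama2, 0.55 ± 0.32, and of nidogen Nid1, 0.39 ± 0.22, neither called. The summed signal of 11 endothelial markers, 11 of them above 4.87, was 6.51 to 7.28 after lactation, 6.46 to 6.77 in lactation and 6.34 to 6.69 in virgin bone, highest in post-lactation 1. In post-lactation versus virgin 11 of 11 endothelial means were higher, by a median of 0.25 that was 0.81, 0.02 and -0.17 within sets 1, 2 and 3 and 0.03 without virgin 1. Smooth muscle and pericyte markers, 6 of 7 above 4.87, summed to 6.70 to 7.33 after lactation, 6.34 to 7.21 in lactation and 5.40 to 7.30 in virgin bone, with virgin 1 the lowest. The part of these cells in the collagen IV values was not tested.

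Collagen VI is assembled from an α1, an α2 and an α3 chain, encoded by Col6a1, Col6a2 and Col6a3, and these genes were singled out after their values were seen. Col6a1 and Col6a2 had their highest means after lactation and Col6a3 in lactation. Col6a2 measured 10.39, 9.97 and 10.43 after lactation, 9.21, 9.34 and 9.38 in lactation and 8.55, 9.03 and 9.58 in virgin bone. Its post-lactation arrays were above all 6 others. The difference was 0.95 ± 0.27, 1.94-fold, for post-lactation versus lactation and 1.21 ± 0.27, 2.31-fold, for post-lactation versus virgin, with limma adjusted p of 0.273 and 0.255, and 0.147 and 0.209 with the set block. The second Col6a2 probe set gave 0.57 and 1.02. Within sets 1, 2 and 3 the Col6a2 differences were 1.01, 1.09 and 0.75 over lactation and 1.84, 1.39 and 0.39 over virgin. Col6a1 measured 9.97, 9.41 and 10.16 after lactation, 9.25, 9.24 and 9.12 in lactation and 8.11, 8.84 and 9.29 in virgin bone, likewise with post-lactation above all others, by 0.64 ± 0.30 over lactation and 1.10 ± 0.30 over virgin (adjusted p 1 and 0.737). For Col6a1 sets 1, 2 and 3 gave 0.84, 0.92 and 0.17 over lactation and 1.86, 1.33 and 0.12 over virgin. Col6a3 measured 9.63, 9.56 and 10.10 after lactation, 10.07, 10.50 and 10.11 in lactation and 8.93, 9.35 and 9.87 in virgin bone. It was highest in lactation in every set, 0.84 ± 0.27 above virgin without overlap, and post-lactation minus lactation was -0.46 ± 0.27, and -0.48, -0.40 and -0.51 within the sets. The adjusted p was 1 for both, and 0.319 and 0.413 with the block.

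Because partner chains lie on the same array, their log2 difference within an array removes whatever shifts both alike; its zero has no meaning, since 2 probe sets are not comparable in level. Col6a2 minus Col6a3 was 0.76, 0.40 and 0.32 in the post-lactation arrays, -0.86, -1.17 and -0.73 in lactation and -0.38, -0.32 and -0.30 in virgin bone. The 3 groups did not overlap at all. Post-lactation minus lactation was 1.41, lactation minus virgin was -0.59 and post-lactation minus virgin was 0.83. Each had an exact two-sided permutation p of 0.1, the smallest that 3 arrays against 3 can give, and 0.191 after Benjamini-Hochberg adjustment over 21 comparisons of 7 pairs. Col6a1 minus Col6a3 differed by 1.10, -0.38 and 0.72 in the same 3 comparisons. Col6a1 minus Col6a2 differed by -0.31, 0.20 and -0.11, with no overlap only in post-lactation versus lactation, and by 0.07, 0.02 and 0.09 with the second Col6a2 probe set, overlapping throughout. For Col6a2 minus Col6a3 the values with that second, dimmer probe set were 1.04, -0.40 and 0.64, and lactation and virgin then overlapped. Col6a1 and Col6a3 had 1 probe set each, so their side of these differences could not be checked with another. Of the 21 comparisons 11 had no overlap and 0 fell under 0.05, which the design cannot reach. With 3 arrays against 3, no overlap in either direction is itself the event with that exact permutation p of 0.1. The 21 are not independent, as comparisons share groups and the collagen VI pairs share chains. Col1a1 minus Col1a2 was 0.51 higher in lactation than in virgin bone with the probe sets used here, but -0.29 to 0.33 with the 5 other pairings of probe sets. Col5a1 minus Col5a2 differed by -0.53 between post-lactation and lactation, and by -0.48 to -0.03 with other pairings. Col4a1 minus Col4a2 differed by -0.01 to 0.18, with overlap throughout.

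**Figure D3:**
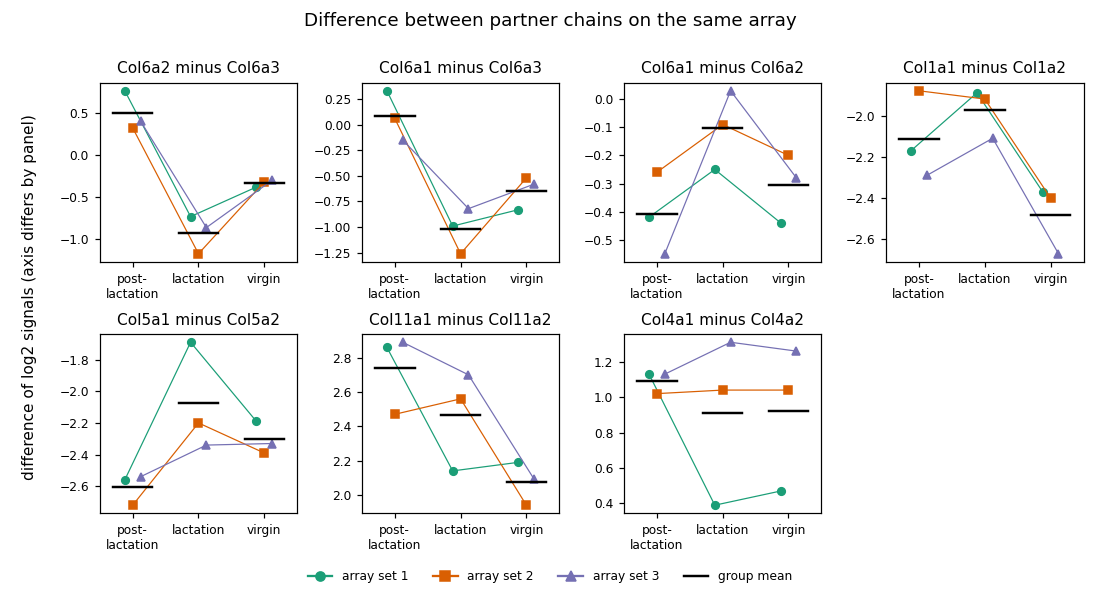
Difference in log2 signal between partner chains on the same array (vertical axis, log2), with post-lactation, lactation and virgin from left to right, points joined by array set and bars at the group means; the vertical axis differs by panel. Col6a2 minus Col6a3 and Col6a1 minus Col6a3 are higher on all post-lactation arrays than on all lactation arrays; Col4a1 minus Col4a2 overlaps between groups.

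Of the remaining chains, Col8a1 and Col25a1 had the largest differences; they and Col13a1 were chosen after their values were seen. Collagen VIII is a short-chain collagen of vessel walls and other tissues. Col8a1 measured 10.40, 10.57 and 11.15 after lactation, 9.70, 9.83 and 9.72 in lactation and 8.28, 9.50 and 9.98 in virgin bone. Post-lactation was above all 6 other arrays, by 0.96 ± 0.38 over lactation, 1.94-fold, and 1.46 ± 0.38 over virgin, 2.74-fold, the largest difference of any chain (limma adjusted p 0.754 and 0.569, and 0.238 and 0.23 with the block). Its second probe set above 4.87 gave 1.27 and 1.65. Within sets 1, 2 and 3 post-lactation minus virgin was 2.12, 1.65 and 0.59.

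Collagen XXV is a membrane-bound collagen known from neurons. Col25a1 measured 5.25, 5.80 and 5.76 after lactation, 7.02, 6.83 and 6.89 in lactation and 5.53, 7.11 and 7.79 in virgin bone. Every post-lactation array was below every lactation array, which held for 6.8% of genes above 4.87, at a difference of -1.31 ± 0.45, 2.48-fold lower, with limma adjusted p of 0.554 and 0.174 with the block. Virgin 1, at 5.53, lay with the post-lactation arrays. Post-lactation minus virgin was -1.21 ± 0.45 over the 9 arrays, with overlap (adjusted p 1, and 0.459 with the block). Without virgin 1 the fit called Col25a1 lower after lactation than in lactation (adjusted p 0.0382, and 0.0268 with the block) and lower than in virgin bone (-1.85, adjusted p 0.0354, and 0.102 with the block). The second Col25a1 probe set gave 0.07 and -0.10 for the same comparisons. Col13a1, another membrane-bound collagen, measured 6.42, 7.84 and 8.35 after lactation, 8.41, 8.52 and 7.70 in lactation and 6.60, 7.93 and 8.27 in virgin bone. It was highest in lactation in every set, with all groups overlapping. Col18a1, a collagen of vascular basement membranes, was highest after lactation in every set, at 6.98, 7.27 and 7.11, against 7.14, 6.83 and 6.67 in lactation and 6.21, 6.83 and 7.14 in virgin bone. The groups overlapped, at 0.24 ± 0.26 over lactation and 0.39 ± 0.26 over virgin. The second Col18a1 probe set, with a mean of 6.23, gave -0.02 and 0.18. Col7a1 and Col15a1 differed by -0.11 to 0.12.

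**Figure D4:**
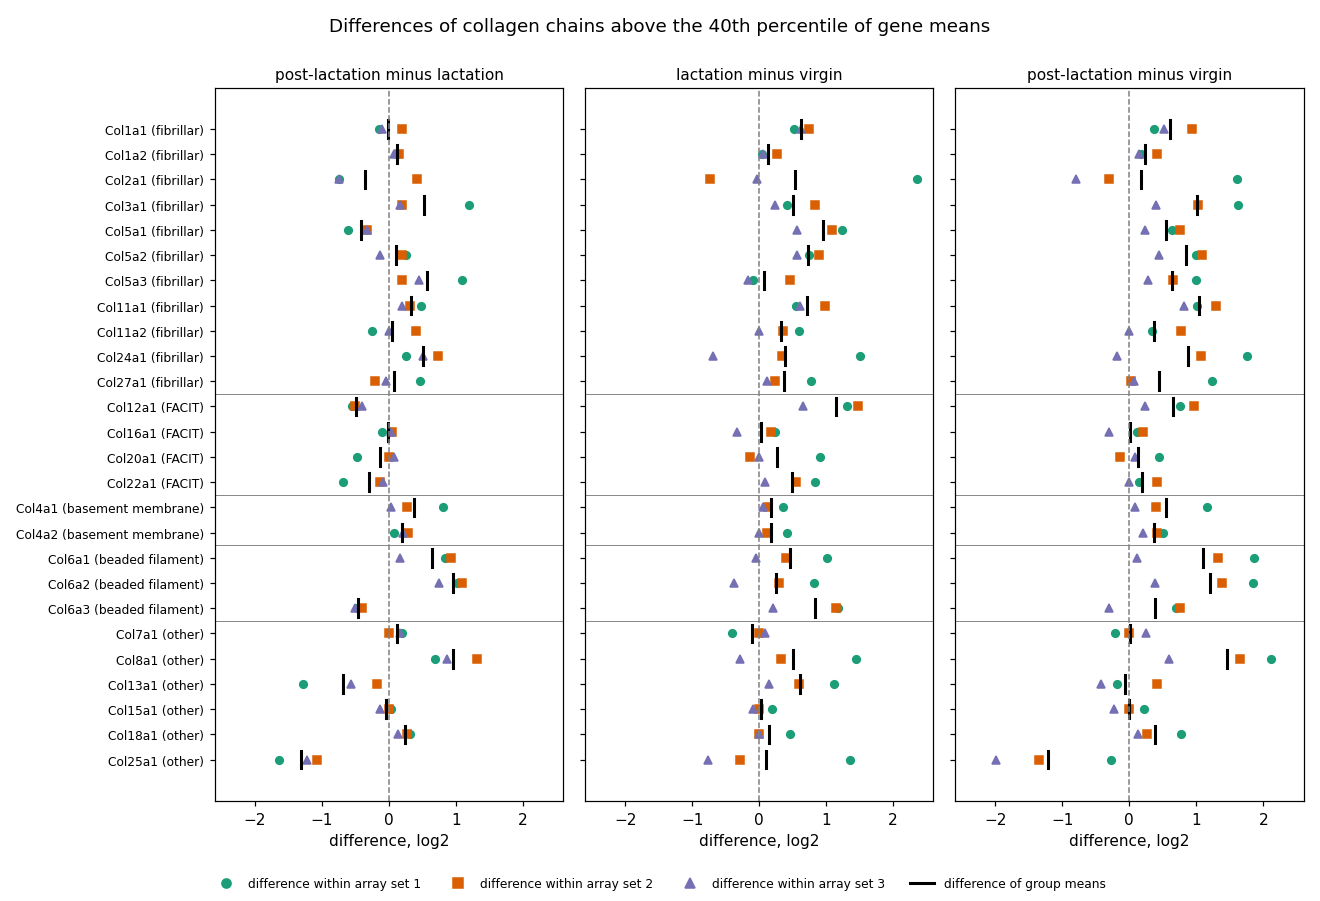
Log2 difference for each of the 26 chains above 4.87 in mean, in panels for post-lactation minus lactation, lactation minus virgin and post-lactation minus virgin; the black bar is the difference of the group means and the points are the differences within array sets 1, 2 and 3. Col12a1 and Col5a1 lead lactation minus virgin with 1.14 and 0.96, Col8a1 and Col6a2 lead post-lactation minus virgin with 1.46 and 1.21, and Col25a1 lies lowest in post-lactation minus lactation at -1.31.

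Some chains had the same group highest in every array set, though the order of the other groups could differ between sets. Highest in post-lactation in all 3 sets were 10 of the 26 chains above 4.87, Col1a2, Col3a1, Col5a3, Col11a1, Col4a1, Col4a2, Col6a1, Col6a2, Col8a1 and Col18a1, against 5.34% of all genes above 4.87. Highest in lactation in all 3 sets were 5 of 26, Col5a1, Col12a1, Col22a1, Col6a3 and Col13a1, against 11.8%. Genes with tied values within a set cannot meet either pattern, which lowers both shares by an amount not measured. Other probe sets of the same chains bore on these directions: of 17 further probe sets above 4.87, from 14 chains, the sign was that of the one used in 11 for post-lactation versus lactation, 16 for lactation versus virgin and 17 for post-lactation versus virgin.

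Genes that hydroxylate, fold, cleave and crosslink collagen were counted from a list of 33, of which 29 were measured. For post-lactation versus lactation 11 of 29 means were higher, with a median of -0.10, for lactation versus virgin 23 with 0.19, and for post-lactation versus virgin 21 with 0.14. None passed limma's test with or without the block, and 1, 3 and 1 had an unadjusted p under 0.05 (4, 7 and 2 with the block). The following examples were chosen after their values were seen. Bmp1, which removes the C-terminal propeptide of fibrillar procollagens, averaged 7.68 after lactation, 8.34 in lactation and 7.40 in virgin bone, 0.95 ± 0.29 for lactation versus virgin. Serpinh1, the collagen chaperone Hsp47, averaged 9.62 after lactation, 10.18 in lactation and 9.37 in virgin bone. Lox, a crosslinking enzyme, averaged 9.78 after lactation, 9.89 in lactation and 9.14 in virgin bone. Without virgin 1 the list's median was -0.03 for lactation versus virgin and -0.15 for post-lactation versus virgin. Of 11 collagen receptors and uptake genes 10 were measured, with medians of 0.00 for post-lactation versus lactation, 0.09 for lactation versus virgin and 0.14 for post-lactation versus virgin (-0.15 and -0.04 against virgin without virgin 1). None passed, and 0 had an unadjusted p under 0.05 without the block (2, 0 and 1 with it). Beside both lists, the unadjusted shares among all genes were 5.06%, 1.8% and 2.09%, and 15.1%, 8.01% and 8.11% with the block.

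Markers of osteoclasts, the cells that resorb bone matrix, are set beside the collagen values. Of 8 osteoclast markers, 7 of them above 4.87 and Calcr below, 8 had a lower mean after lactation than in lactation, with a median of -1.24, and 8 had a higher mean in lactation than in virgin bone, with a median of 1.40. Their summed signal was 7.81 to 8.51 after lactation, 8.88 to 9.56 in lactation and 7.68 to 7.84 in virgin bone. None passed limma's test without the block, where the smallest adjusted p was 0.0644 and 6, 7 and 0 had an unadjusted p under 0.05 in the 3 comparisons. With the block Acp5, Ctsk, Dcstamp, Oscar and Atp6v0d2 fell after lactation relative to lactation, and Dcstamp rose in lactation relative to virgin. Marrow stroma and adipocyte markers, 7 measured and all above 4.87, summed to 8.99 to 9.94 after lactation, 8.60 to 9.0 in lactation and 8.91 to 8.97 in virgin bone, with a post-lactation versus lactation median of 0.71 and 0 called (3 with an unadjusted p under 0.05). B lymphocyte markers, 6 measured and all above 4.87, summed to 6.56 to 7.39 after lactation, 5.14 to 5.97 in lactation and 4.45 to 6.16 in virgin bone. In 6 of 6 the mean was higher after lactation than in lactation and than in virgin bone, by medians of 1.17 and 1.18 (0.39 against virgin without virgin 1). None passed without the block, where 2 had an unadjusted p under 0.05 in each of these comparisons; with it Vpreb1 rose after lactation relative to lactation, and 5 had an unadjusted p under 0.05 in each. Neutrophil markers, 8 measured and all above 4.87, summed to 12.17 to 12.31 after lactation, 11.65 to 12.12 in lactation and 11.92 to 12.41 in virgin bone. In post-lactation versus lactation their median was 0.31, with 0 called without the block (3 with an unadjusted p under 0.05) and 1, Camp, higher with it. The part of these cells in the collagen values was not tested. Shares of all genes are given for post-lactation versus lactation, lactation versus virgin and post-lactation versus virgin in turn. Limma's unadjusted p was under 0.05 in 5.06%, 1.8% and 2.09%, and in 15.1%, 8.01% and 8.11% with the block. With the block 3.53%, 0.022% and 0.451% were called after adjustment.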

How the data were processed

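RNA from 9 tibial samples was hybridised to Affymetrix mouse arrays. The authors deposited log2 values for 45101 probe sets, summarised with RMA per the submitters' processing notes; its version and filters, and whether arrays were summarised in groups, are not given there or in the other sources used here. None was missing and no log was taken again. Probe sets naming 1 gene (34958) were kept, those naming several (932) or none (9211) left out, and the brightest probe set stood for each of 18194 genes. Genes were compared with limma version 3.58.1 (lmFit, eBayes) in R version 4.3.3 over all 9 arrays, with no block, Benjamini-Hochberg adjustment over all genes and a threshold of 0.05; the procedure was tested on simulated data. Exact permutation tests used scipy version 1.17.1. The number of arrays limits the precision.

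Deviations from group means correlated at -0.41 to 0.67 over the 9 pairs with the same replicate number in the titles. Within array sets they correlated at 0.47 to 0.73, and at -0.47 to -0.13 between sets. Of the same-number pairs, virgin 2 with lactation 2 (0.67) and virgin 1 with post-lactation 1 (0.47) share a set. The sets were found from equal values on these arrays, so these correlations are no independent test of them. The array set was used as the block. Alternatives were that block, the replicate number as a block, the mean over probe sets, every probe set alone, median centring, quantile normalization, leaving out genes under the 40th percentile, a variance trend and leaving out each array or set. With every probe set alone, the probe set with the smallest p stood for its gene. The block without virgin 1 and the partner-chain differences were added after seeing the data.

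The members, lists and tests were chosen with earlier results of these data known. Full values are given for chains called in any comparison with or without the set block, for Col1a1, Col1a2, Col2a1, Col3a1, Col5a1, Col10a1, Col12a1, Col4a1 and Col4a2, and for the largest difference of each of the 3 main families; other chains shown were chosen after their values were seen.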

Additional observations from a re-analysis of the deposited data

How the results depend on the processing

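No collagen chain was called in lactation versus virgin under any alternative. Leaving out single arrays or sets gave 0 to 1 called chains in post-lactation versus lactation and 0 to 1 in post-lactation versus virgin, the 1 being Col25a1 in each case without virgin 1, and 1 chain, Col11a1, was called in post-lactation versus virgin with the array set as a block. The replicate block, by title number, called 0 collagen chains in all 3 comparisons and 118, 0 and 33 of all genes in post-lactation versus lactation, lactation versus virgin and post-lactation versus virgin, against 129, 0 and 32 without it. The fibrillar medians kept their sign against virgin, at 0.12 to 0.64 for lactation and 0.44 to 0.70 for post-lactation with 1 array or set left out, and ran from -0.05 to 0.27 for post-lactation versus lactation. The FACIT medians ran from -0.16 to 0.19 for post-lactation versus lactation, -0.12 to 0.29 for lactation versus virgin and -0.05 to 0.25 for post-lactation versus virgin, and the basement membrane medians from -0.09 to 0.25, -0.14 to 0.12 and -0.09 to 0.28. Without genes under the 40th percentile fewer chains enter, and the FACIT medians were -0.22 and 0.37 for post-lactation versus lactation and lactation versus virgin, and the basement membrane medians 0.28, 0.18 and 0.46 in the 3 comparisons. With the mean over probe sets, post-lactation versus lactation was 0.17 for basement membrane chains and post-lactation versus virgin 0.02 for FACIT chains. Some single differences changed sign with 1 array or set left out. For post-lactation versus lactation the ranges were -0.32 to 0.17 for Col1a1, -0.07 to 0.28 for Col1a2, -0.04 to 0.23 for Col5a2 and -0.40 to 0.46 for Col10a1. For lactation versus virgin they were -0.04 to 0.29 for Col1a2, -0.38 to 1.16 for Col2a1, -0.04 to 0.33 for Col4a1, -0.13 to 0.19 for Col5a3, -0.05 to 0.56 for Col6a2, -0.26 to 0.65 for Col10a1, -0.17 to 0.92 for Col24a1 and -0.54 to 0.59 for Col25a1. For post-lactation versus virgin they were -0.65 to 0.70 for Col2a1, -0.24 to 0.69 for Col10a1 and -0.56 to 0.50 for Col13a1. With the mean over probe sets and with the second probe set alone, post-lactation versus lactation was 0.02 and 0.07 for Col1a1 and -0.06 and -0.23 for Col5a2. In the same way lactation versus virgin was -0.03 and -0.17 for Col25a1. The cause of these changes was not tested. The level of 4.87 is a percentile of gene means and not a detection limit, and 3 arrays a group limit every call.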
